A study of Mus musculus with 12 samples.

Results

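The chemokine receptors and thymus homing genes Ccr7, Ccr9, Cxcr4, Ccr2, Cxcr3, Selplg, Cd44, S1pr1 and S1pr4 were taken as the 9 rows of the count table that carry these gene names, of 32285 genes in all. Their RNA was measured in bone marrow (BM) progenitors of wild-type C57BL6/J mice in 4 groups of 3 libraries each. These were Ly6d- CLPs (common lymphoid progenitors without the B-lineage surface protein Ly6d) at 1MO (1 month) and at 3MO (3 months), and Flk2+ MPPs (multipotent progenitors that carry the Flt3 receptor Flk2) at 1MO and 3MO. No group carried a transgene or a treatment, and both populations were sorted as lineage-negative, Flk2+ and CD27+ cells, with IL-7R, c-kit, Sca-1 and Ly6d separating the CLPs from the MPPs. No gene of the set was part of that sort. All 9 genes were among the 13367 that passed the filter on low counts, Cxcr3 through the 1MO MPPs alone.

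Progenitors that seed the thymus leave the BM, circulate and enter the thymus from blood vessels. Chemokine receptors are G protein-coupled receptors that steer cells along chemokine gradients, and CCR9, CCR7 and PSGL-1, the product of Selplg, are known for their part in thymus entry. CXCR4 holds hematopoietic cells near CXCL12-producing BM stroma, while S1P receptors sense sphingosine-1-phosphate (S1P), a lipid that is abundant in blood and draws cells out of tissues.

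The libraries held from 8889083 to 20677785 estimated counts over all genes, with a median of 13208993. Levels are given as CPM (counts scaled to a common library total), adjusted by the trimmed mean of M-values (TMM). The sort was visible in the RNA, since Il7r stood at 299 to 402 CPM in the 6 CLP libraries and 5.24 to 18.5 CPM in the 6 MPP libraries. Markers of other cell types moved with the comparison of CLPs against MPPs. For 8 plasmacytoid dendritic cell markers, the summed level was mostly that of Tcf4 and Irf8 in each group. The summed level was 1713 to 1772 CPM in 1MO CLPs and 1488 to 1538 CPM in 3MO CLPs. In MPPs the summed level was 491 to 576 CPM at 1MO and 451 to 696 CPM at 3MO. That of 8 B-cell markers was 846 to 942 CPM and 718 to 862 CPM in 1MO and 3MO CLPs, against 234 to 249 CPM and 222 to 328 CPM in the MPPs, most of it Ighm, and that of 8 monocyte markers was 444 to 482 CPM and 404 to 696 CPM, against 209 to 304 CPM and 340 to 422 CPM. Cd14, which marks mature monocytes, was at 0 in 11 of 12 libraries, and the T-cell receptor genes Cd3e, Cd3d, Cd3g and Trac did not pass 1.80 CPM in any. Granulocyte markers summed to 935 to 1316 CPM in 1MO CLPs and 669 to 805 CPM in 1MO MPPs. At 3MO these sums overlapped, at 836 to 1118 CPM in CLPs and 605 to 967 CPM in MPPs. Dendritic cell markers summed to 1410 to 1590 CPM and 1509 to 1574 CPM in 1MO and 3MO CLPs. In MPPs they summed to 1140 to 1255 CPM and 1307 to 1421 CPM. Of the dendritic sums Flt3, the Flk2 gene of the sort, made up 1103 to 1524 CPM over all 12 libraries. Sums over the same libraries were 9.77 to 132 CPM for erythroid markers and 25.5 to 59.0 CPM for megakaryocyte and platelet markers. T and NK cell markers summed to 22.5 to 48.4 CPM. The part of any of these in the differences between CLPs and MPPs was not tested, and in bulk RNA fewer cells that express a gene and less RNA per cell cannot be told apart.

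In CLPs against MPPs, 4 of the 9 genes were higher in CLPs at 1MO and none lower (Ccr7, Cxcr4, Selplg and Cd44). At 3MO, Ccr7 and Selplg were higher and S1pr1 was lower. The threshold was an adjusted p of 0.05 in edgeR's quasi-likelihood test over all genes tested. At 1MO this test called 5.38% of all genes, 2.57% as higher in CLPs and 2.81% as lower, and at 3MO it called 6.07%, 2.73% as higher and 3.34% as lower. The median log2 fold change of the 9 genes was 0.67 at 1MO and 0.44 at 3MO, while that of all genes was -0.02 and -0.03. The 3 CLP libraries lay wholly above or below the 3 MPP libraries for 8 of the 9 genes at 1MO and for 6 at 3MO, as they did for 24.9% and 21.8% of all genes. The 8 include Cxcr3, which passed the filter through the 1MO MPPs, the group where it was high, so nothing is read from its place among them.

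**Figure D1:**
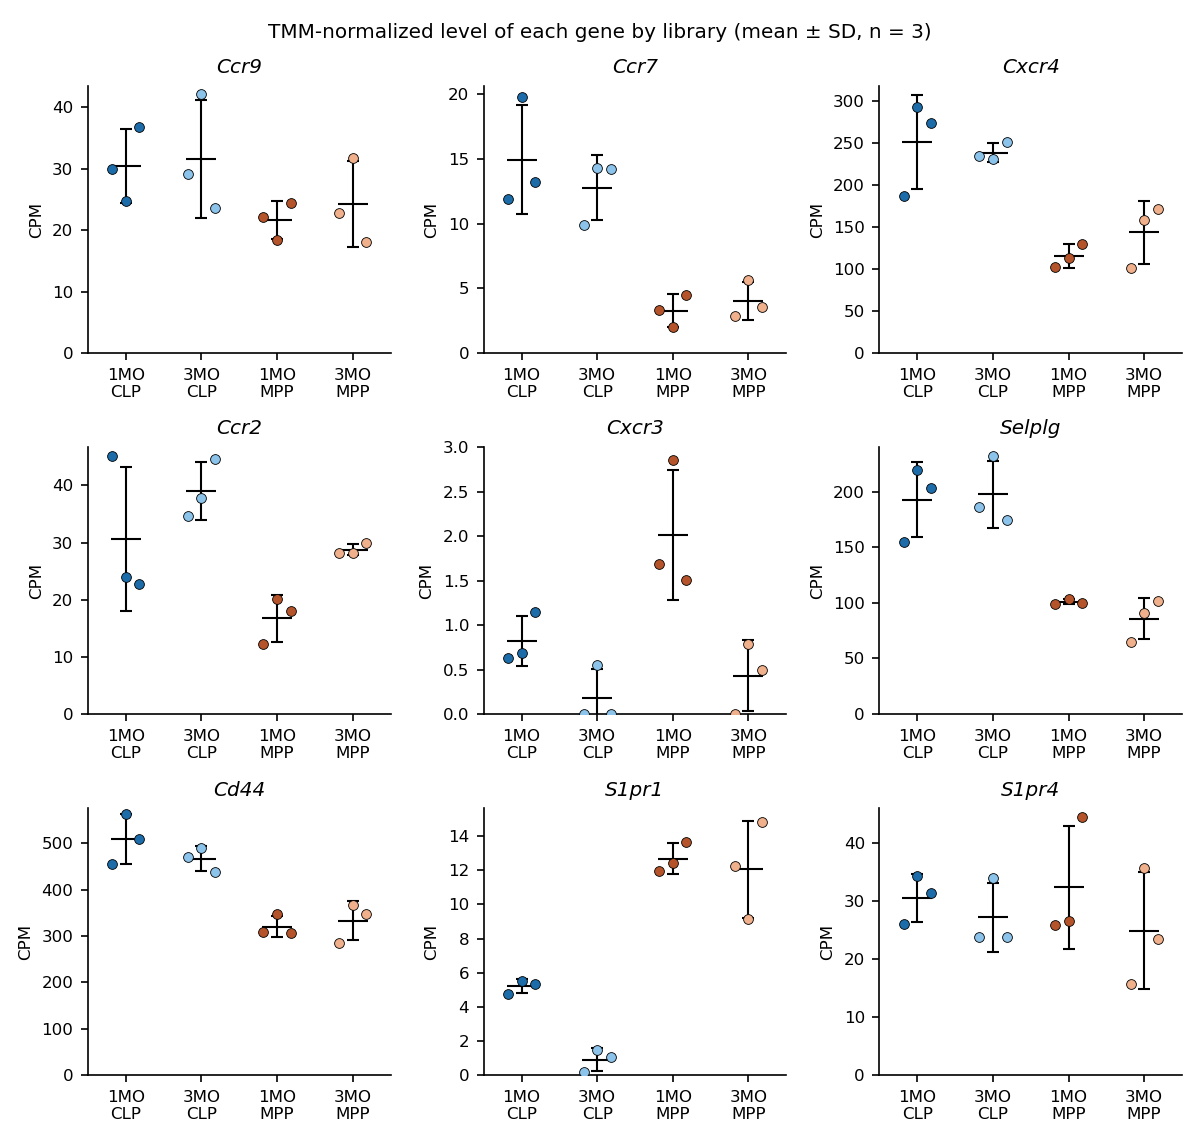
Level of each of the 9 genes in CPM (vertical axis, from 0) in the 3 libraries of each group (points), with the mean (bar) and SD (whiskers, n = 3). Ccr7, Cxcr4, Selplg and Cd44 lay higher in all CLP libraries than in all MPP libraries of the same age, while S1pr1 was at 4.77 to 5.53 CPM in 1MO CLPs, 0.202 to 1.49 CPM in 3MO CLPs and 9.14 to 14.8 CPM in MPPs.

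Cxcr4 (chr1:128588199-128592293, minus strand, mm10), the receptor for CXCL12, was at 187, 293 and 274 CPM in 1MO CLPs and at 103, 113 and 130 CPM in 1MO MPPs. At 3MO it was at 234, 230.5 and 251 CPM in CLPs and at 101, 158 and 171 CPM in MPPs. The CLP libraries were above the MPP libraries at both ages, without overlap. Cxcr4 was 2.18-fold higher in CLPs at 1MO (log2 fold change 1.12, SE 0.21, edgeR adjusted p = 0.00365). At 3MO it was 1.66 times the MPP level (log2 fold change 0.73, SE 0.21), which missed the threshold with an edgeR adjusted p of 0.0502 and passed it in DESeq2 with an adjusted p of 0.0102 and in edgeR with the replicate number as a block, with an adjusted p of 0.00714.

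Ccr7 (chr11:99144196-99155077, minus strand), the receptor for CCL19 and CCL21, was a low-level transcript in both populations. It was at 11.9, 19.8 and 13.2 CPM in 1MO CLPs and 3.29, 1.98 and 4.52 CPM in 1MO MPPs. In 3MO mice it was at 9.89, 14.3 and 14.2 CPM in CLPs and 2.85, 5.68 and 3.54 CPM in MPPs. The lowest CLP library was above the highest MPP library at each age. Ccr7 had the largest fold change of the genes higher in CLPs, 4.54-fold at 1MO (log2 2.18, SE 0.44, edgeR adjusted p = 0.00708) and 3.16-fold at 3MO (log2 1.66, SE 0.44, edgeR adjusted p = 0.0334). The 1MO call was lost without 1MO CLP library 2 (adjusted p = 0.0522). The 3MO call was lost without 3MO CLP library 2 or 3 or 3MO MPP library 1 or 3, with adjusted p from 0.0888 to 0.109, and in a fit of those 6 libraries alone (adjusted p = 0.105).

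Ccr9 (chr9:123678439-123784330, plus strand), the receptor for the thymic chemokine CCL25, passed no test between the 4 groups. Its level was 29.9, 24.7 and 36.8 CPM in 1MO CLPs and 22.1, 18.3 and 24.4 CPM in 1MO MPPs. At 3MO it was 29.1, 42.2 and 23.6 CPM in CLPs and 22.8, 31.8 and 18.1 CPM in MPPs. The 3MO groups overlapped, and at 1MO the lowest CLP library was just above the highest MPP library. Each CLP library lay above the MPP library of the same age and number, but Ccr9 was not called with a replicate block either. The log2 fold change of CLPs against MPPs was 0.49 at 1MO (95% interval -0.12 to 1.11) and 0.38 at 3MO (-0.23 to 1.00), neither past the threshold. The annotated span of Ccr9 overlaps other genes on both strands, Lztfl1 and Slc6a20a among them, and 5.49% of its 31-base words also occur in other genes, mostly Gm17200, so its counts are less certain than those of the other receptors.

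Ccr2 (chr9:124101950-124113557, plus strand), the receptor for CCL2 and also a gene of monocytes, was at 45.1, 24.0 and 22.8 CPM in 1MO CLPs and at 12.2, 20.2 and 17.96 CPM in 1MO MPPs. At 3MO it was at 34.6, 37.8 and 44.6 CPM in CLPs and 28.2, 28.1 and 29.8 CPM in MPPs. The first 1MO CLP library was above all 3MO CLP libraries, and the other two 1MO CLP libraries lay below all 3MO libraries. No comparison of Ccr2 passed the threshold. The log2 fold change of CLPs against MPPs was 0.87 at 1MO (95% interval 0.25 to 1.48, edgeR adjusted p = 0.113) and 0.44 at 3MO (-0.17 to 1.05), and that of 3MO against 1MO MPPs was 0.78 (0.16 to 1.39, edgeR adjusted p = 1). The sums of the monocyte markers did not overlap between the same MPP groups, at 209 to 304 CPM at 1MO and 340 to 422 CPM at 3MO. Of the single monocyte markers, only Fn1 and Ly6c2 were without overlap there. Fn1 was at 23.8 to 71.2 CPM and 90.8 to 153 CPM (adjusted p of 0.422 in edgeR and 0.0118 in DESeq2), while the means of Csf1r and Ms4a6c were 38.5 and 29.2 CPM at 1MO and 34.2 and 23.9 CPM at 3MO. The granulocyte marker Ngp was at 5.48 to 11.7 CPM and 22.6 to 56.8 CPM (adjusted p of 0.384 in edgeR and 0.00877 in DESeq2). Cd14 was at 0 in all but 1 of these libraries, and the part of these genes in the Ccr2 values was not tested. Of the 31-base words of Ccr2, 3.41% also occur in other genes.

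Cxcr3 (chrX:101731535-101734269, minus strand), the receptor for CXCL9 and CXCL10, was at the edge of detection. The 3 libraries held 7, 14 and 18 counts in 1MO CLPs, 0, 10 and 0 in 3MO CLPs, 21, 26 and 25 in 1MO MPPs and 0, 11 and 7 in 3MO MPPs. In CPM, the 1MO CLPs were at 0.630, 0.692 and 1.14 and the 3MO CLPs at 0, 0.553 and 0, so every 3MO library was below every 1MO library of its cell type. Cxcr3 passed the filter through the 1MO MPPs alone, so nothing is read from this order in MPPs. No comparison passed the threshold, and the 95% interval of the log2 fold change of 3MO against 1MO reached from -5.27 to 1.26 in CLPs and from -5.40 to 1.05 in MPPs.

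The genes for adhesion to vessel walls and matrix were, with Cxcr4, the most abundant of the set per length. Selplg (chr5:113818536-113832644, minus strand), which encodes the P-selectin ligand PSGL-1, was at 155, 220 and 203 CPM in 1MO CLPs and 98.9, 104 and 100 CPM in 1MO MPPs. At 3MO it was at 186, 232 and 175 CPM in CLPs and 65.1, 90.8 and 101 CPM in MPPs. All CLP libraries were higher than all MPP libraries. Selplg was 1.91-fold higher in CLPs at 1MO (log2 0.93, SE 0.19, edgeR adjusted p = 0.00756) and 2.30-fold higher at 3MO (log2 1.20, SE 0.19, edgeR adjusted p = 0.00125), and it passed the threshold with any 1 library left out.

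Cd44 (chr2:102811141-102901665, minus strand), a receptor for hyaluronan, was at 456, 562 and 509 CPM in 1MO CLPs and at 308, 347 and 307 CPM in 1MO MPPs. At 3MO it was at 472, 490 and 437 CPM in CLPs and at 286, 366 and 347 CPM in MPPs. Again no MPP library reached a CLP library. Cd44 was 1.59-fold higher in CLPs at 1MO (log2 0.67, SE 0.15, edgeR adjusted p = 0.0113), a call lost without 1MO CLP library 2 (adjusted p = 0.0761) or without 1MO MPP library 1 or 3 (adjusted p = 0.0655 and 0.0502). At 3MO the ratio was 1.40 (log2 0.49, SE 0.15), with an adjusted p of 0.0638 in edgeR, 0.0217 in edgeR with the replicate block and 0.0101 in DESeq2.

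Promoters of the reference genome (RefSeq, GRCm38.p6) were at hand for 6 of the 9 genes. The 250 bases before the start site are shown for Cxcr4 and Cd44, which were both higher in CLPs at 1MO, and for S1pr4, which passed no test between CLPs and MPPs. Each is written 5′ to 3′ on the strand of the gene, from chr1:128592300-128592549, chr2:102901666-102901915 and chr10:81500138-81500387, all on the minus strand. Capitals mark matches on either strand to the E-box letters CAGGTG, which E proteins and their partners can bind, to the E-box letters CAGCTG, and to CACCC, the core bound by KLF factors.
Cxcr4: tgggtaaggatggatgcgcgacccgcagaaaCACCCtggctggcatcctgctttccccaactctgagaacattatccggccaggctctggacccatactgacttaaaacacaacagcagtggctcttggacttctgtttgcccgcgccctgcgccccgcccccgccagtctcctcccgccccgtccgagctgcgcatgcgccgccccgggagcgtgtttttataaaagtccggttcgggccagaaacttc
Cd44: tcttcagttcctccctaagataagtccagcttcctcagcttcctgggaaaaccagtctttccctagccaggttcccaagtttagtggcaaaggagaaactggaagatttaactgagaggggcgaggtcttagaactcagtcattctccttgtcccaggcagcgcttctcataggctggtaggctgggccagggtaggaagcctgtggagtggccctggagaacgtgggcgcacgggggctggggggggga
S1pr4: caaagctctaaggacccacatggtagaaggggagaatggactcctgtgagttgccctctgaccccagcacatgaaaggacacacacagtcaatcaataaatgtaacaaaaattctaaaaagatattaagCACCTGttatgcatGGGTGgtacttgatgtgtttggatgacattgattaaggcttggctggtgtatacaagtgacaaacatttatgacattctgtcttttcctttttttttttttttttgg
Cxcr4 held 1 CACCC match and neither E-box, Cd44 held none of the 3 motifs, and S1pr4 held 1 CAGGTG and 1 CACCC match, both as their reverse complements CACCTG and GGGTG. Over 32851 promoter windows of the same length, 17.2% held CAGGTG, 13% CAGCTG and 52.0% CACCC. These are matches of letters only, and the data held no measurement of binding.

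Of the S1P receptors in the set, S1pr1 (chr3:115710433-115715072, minus strand), the receptor on which T cells depend to leave the thymus, had the widest range of levels as a ratio of group means. S1pr1 was at 11.97, 12.4 and 13.7 CPM in 1MO MPPs and at 12.3, 9.14 and 14.8 CPM in 3MO MPPs. In CLPs it was at 4.77, 5.53 and 5.33 CPM at 1MO, from 53, 112 and 84 counts, and at 0.202, 1.49 and 1.03 CPM at 3MO, from 2, 27 and 13 counts. The 3 groups of values were thus ordered MPPs of either age, 1MO CLPs and 3MO CLPs, with no overlap between them. S1pr1 was 12.7-fold lower in CLPs than in MPPs at 3MO (log2 fold change -3.67, SE 0.55, edgeR adjusted p = 0.000717), and this passed the threshold with any 1 library left out. At 1MO the log2 fold change was -1.28 (SE 0.49, edgeR adjusted p = 0.18), past the threshold in a fit of the 6 libraries alone (adjusted p = 0.0455).

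S1pr4 (chr10:81497747-81500132, minus strand), an S1P receptor of hematopoietic cells, overlapped between all groups. It was at 25.9, 34.2 and 31.3 CPM in 1MO CLPs, 23.7, 34.0 and 23.7 CPM in 3MO CLPs, 25.8, 26.6 and 44.5 CPM in 1MO MPPs and 15.6, 35.5 and 23.4 CPM in 3MO MPPs. The log2 fold change of CLPs against MPPs was -0.08 at 1MO (95% interval -0.75 to 0.58) and 0.13 at 3MO (-0.55 to 0.80).

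In 3MO against 1MO CLPs, none of the 9 genes passed the edgeR threshold, which 0.0748% of all genes passed. At an unadjusted p under 0.05 there was 1 gene of the set, S1pr1, and 789 of all 13367, and DESeq2 called the same gene, with 0.426% of all genes called. The log2 fold change of S1pr1 was -2.46 (SE 0.53, 95% interval -3.59 to -1.33, unadjusted p = 3e-04), with an adjusted p of 0.208 in edgeR and 0.0011 in DESeq2. In edgeR the adjusted p was 0.0496 without the filter on low counts, 0.193 with the replicate block, 0.211 with DESeq2 size factors, 0.642 with the libraries thinned to the smallest total, 0.9 in a fit of the 6 CLP libraries alone and 0.219 to 0.435 with 1 library left out. Leaving out 1 library at a time gave log2 fold changes from -3.02 to -2.04. S1pr1 and Cxcr3 were the 2 genes whose 3MO CLP libraries did not overlap the 1MO CLP libraries, and 10.6% of all genes did not overlap.

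Levels of some other transcripts follow for the same CLP groups, of which Rag1 and Col1a1 passed the edgeR threshold. Rag1, a recombinase gene of lymphoid progenitors, was at 197 to 326 CPM in 1MO CLPs and 79.8 to 126 CPM in 3MO CLPs, 2.72-fold lower (edgeR adjusted p = 0.0428), and the B-lineage factor Ebf1 was at 53.0 to 76.3 CPM at 1MO and 20.8 to 38.2 CPM at 3MO (edgeR adjusted p = 0.67). The sum of 8 stromal and endothelial markers was 482 to 886 CPM in 1MO CLPs, 275 to 304 CPM in 3MO CLPs, 140 to 226 CPM in 1MO MPPs and 127 to 180 CPM in 3MO MPPs. Col1a1, a collagen of bone, was at 400.0, 134 and 136 CPM in 1MO CLPs and at 1.92, 0 and 0 CPM in 3MO CLPs. The endothelial cadherin Cdh5 was at 1.35, 0.939 and 1.78 CPM in 1MO CLPs and at 0, 0 and 0.237 CPM in 3MO CLPs (edgeR adjusted p = 0.836). Pecam1, an adhesion gene that hematopoietic progenitors also express, made up nearly all of the 3MO CLP sum, at 268 to 299 CPM against 263 to 286 CPM in 1MO CLPs (log2 fold change 0.01, edgeR adjusted p = 0.996). Lepr, of BM stromal cells, was at 0.360, 0.198 and 0 CPM in 1MO CLPs and at 0.303, 0 and 4.90 CPM in 3MO CLPs. The part of these transcripts in the S1pr1 values was not tested.

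In 3MO against 1MO MPPs, the edgeR test and DESeq2 both called 0 of the 9 genes, and edgeR called 0.0224% of all genes. Ccr2 alone of the set had an unadjusted p under 0.05, as did 465 of all 13367 genes. Ccr2 lay above its 1MO level in all 3MO MPP libraries, and 8.57% of all genes did not overlap between these groups. Cxcr3 did not overlap either, but it passed the filter through the 1MO MPPs, so nothing is read from its lower 3MO level. For S1pr1 in MPPs the log2 fold change was -0.07 (95% interval -1.09 to 0.95). The intervals were narrowest for Cd44, at -0.44 to 0.18 in CLPs and -0.25 to 0.37 in MPPs, for Selplg, at -0.37 to 0.44 and -0.64 to 0.17, and for Cxcr4, at -0.52 to 0.37 and -0.13 to 0.76.

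The interaction of age and cell type asked whether the age difference was unequal in CLPs and MPPs, and no gene of the set passed it in edgeR, nor did any other gene (0%), with 429 of all genes at an unadjusted p under 0.05. DESeq2 called 6 of all genes and 0 of the 9. S1pr1 was the one gene of the set with an unadjusted p under 0.05, with a difference of -2.39 between the log2 fold changes in CLPs and MPPs (SE 0.71, unadjusted p = 0.0041, adjusted p of 1 in edgeR and 0.278 in DESeq2). The difference in S1pr1 between CLPs and MPPs is therefore not shown to depend on age.

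**Figure D2:**
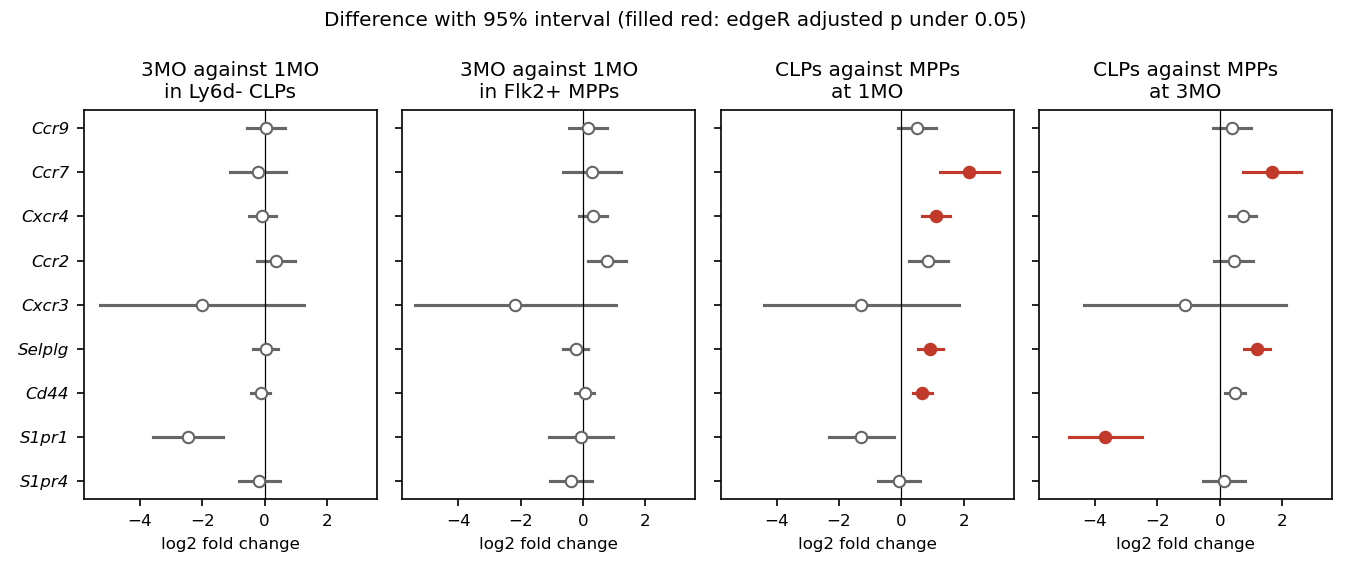
Log2 fold change (horizontal axis) of the 9 genes in the 2 comparisons of 3MO against 1MO and the 2 of CLPs against MPPs, with the 95% interval as a line. Filled red points had an edgeR adjusted p under 0.05. In CLPs against MPPs, Ccr7, Cxcr4, Selplg and Cd44 lay above 0 at 1MO and S1pr1 lay at -3.67 at 3MO, while no gene is filled in the comparisons of age.

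Per kilobase of annotated exon, which allows genes to be ranked within a group, the CPM level of Cxcr4 was the highest of the 9 in every group, from 63.8 ± 7.72 (SD, n = 3) in 1MO MPPs to 139 ± 31.1 in 1MO CLPs. Its mean ± SD was clear of the next gene in 3MO CLPs and overlapped it in the other groups. Selplg and Cd44 followed, at 92.6 ± 16.2 and 90.1 ± 9.38 CPM per kilobase in 1MO CLPs, so that their ranges of mean ± SD overlapped. In MPPs Cd44 was above Selplg without overlap of mean ± SD at both ages, at 56.7 ± 4.04 against 48.5 ± 1.19 at 1MO and 58.9 ± 7.42 against 41.2 ± 8.93 at 3MO. S1pr4 ranked 4 in every group, at 10.4 to 13.5 CPM per kilobase on average, and its mean ± SD did not overlap that of its neighbours in the order. Below it in CLPs, Ccr7, Ccr9 and Ccr2 overlapped their neighbours among these 3 by mean ± SD at both ages, and the lowest of the 3 did not overlap S1pr1. S1pr1 ranked 5 in 1MO MPPs, at 4.16 ± 0.291 CPM per kilobase, 7 in 3MO MPPs and 8 in CLPs, at 0.298 ± 0.215 in 3MO CLPs, but its mean ± SD overlapped that of Ccr9 in 1MO MPPs, of Ccr2 in 3MO MPPs and of Cxcr3 in 3MO CLPs. Cxcr3 was last throughout, but its mean ± SD overlapped that of Ccr7 in 1MO MPPs and of S1pr1 in 3MO CLPs.

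The genes that followed each pattern most closely were sought for the 5 members that spread by at least 1 log2 unit between groups and reached 10 CPM. Likeness was the root mean square difference of centred log2 CPM over the 12 libraries. The nearest of all tested genes were Ighm and S1pr3 for Ccr7, at 0.33 and 0.35, and Cnp and H2-Ob for Cxcr4, at 0.17 and 0.18. Selplg was nearest to Fads2 and Pclaf, both at 0.13, and Ccr2 to Txndc11 and Rasa4, at 0.29 and 0.30. For S1pr1 no gene came closer than 0.63, for Slc35e4, and 0.64, for the junction gene F11r.

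Some other genes of S1P handling differed between CLPs and MPPs. The counts of this and the other lists stand beside the 5.38% of all genes called at 1MO and the 6.07% called at 3MO. Of 12 tested genes of the other S1P receptors and S1P metabolism, 2 were higher and 1 lower in CLPs at 1MO, and 2 were higher and 2 lower at 3MO. The log2 fold changes of the 12 had medians of 0.12 and 0.34. S1pr3, another S1P receptor, was at 43.1 to 61.7 CPM in 1MO CLPs and 10.4 to 14.9 CPM in 1MO MPPs, and was 4.59-fold higher in CLPs (edgeR adjusted p = 0.000243). It was 3.38-fold higher at 3MO, the opposite direction to S1pr1. Cd69, whose product pulls S1PR1 from the cell surface, was 2.46-fold higher in CLPs at 1MO (60.5 to 89.9 against 25.7 to 35.3 CPM, edgeR adjusted p = 0.00556) and 1.92-fold higher at 3MO. Spns2, an exporter of S1P, was lower in CLPs at both ages, 2.84-fold at 1MO (63.7 to 93.3 against 205 to 235 CPM, edgeR adjusted p = 0.000115) and 3.11-fold at 3MO.

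Plpp3, a lipid phosphatase that degrades S1P, was the other gene called lower at 3MO. It had 0 counts in all 3MO CLP libraries and 0.567 to 2.30 CPM in 3MO MPPs, and it passed the filter mostly through the MPPs, so nothing is read from its call. S1pr2, a receptor that opposes S1PR1 in migration, was at 5.58 to 6.35 CPM in 1MO CLPs and 9.24 to 20.4 CPM in 1MO MPPs and passed no test. Klf2, a transcription factor that induces S1pr1 in T cells, passed none either, with 27.6 CPM in 1 of the 3MO CLP libraries and 7.74 and 8.38 CPM in the others.

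**Figure D3:**
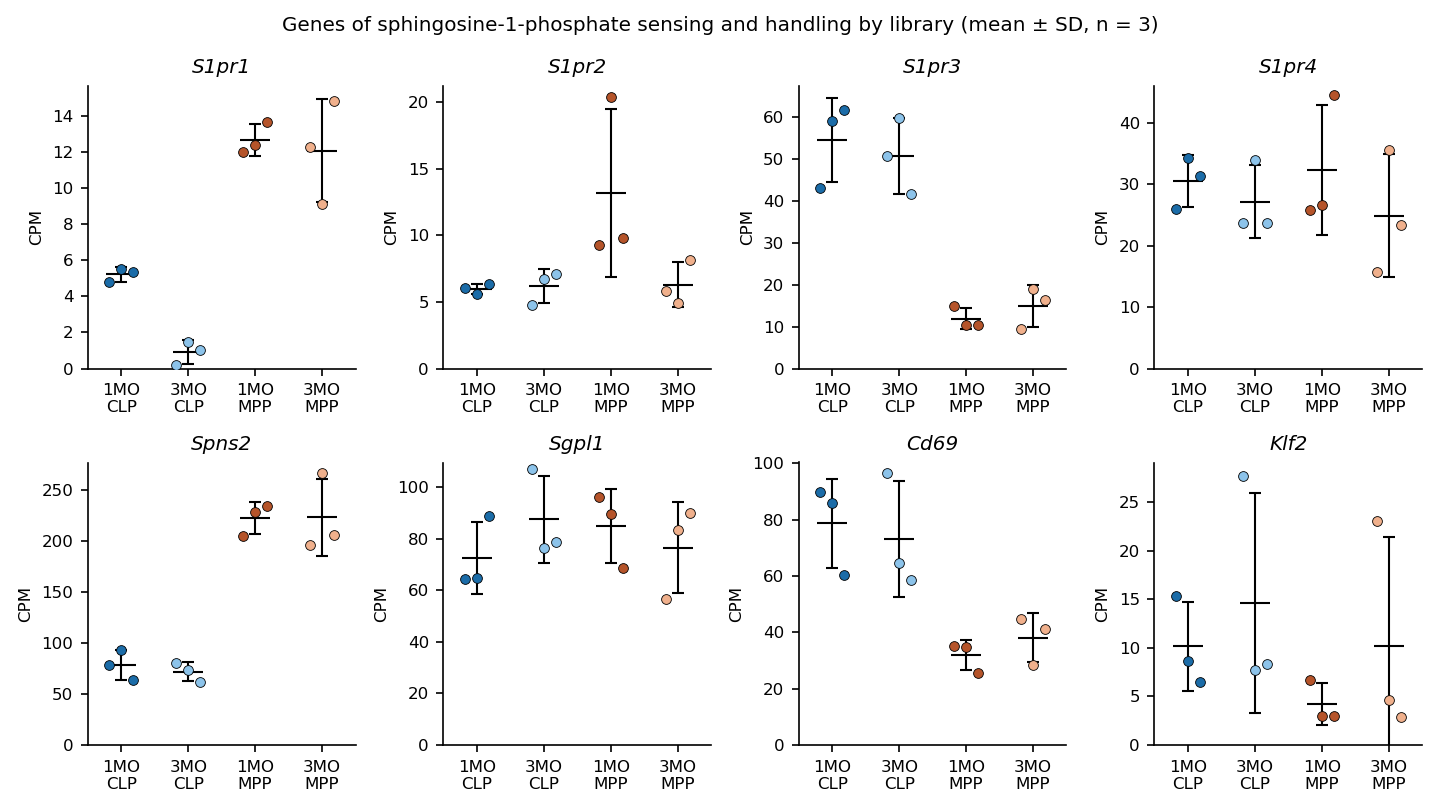
Level in CPM (vertical axis, from 0) of 8 genes of S1P sensing and handling in the 3 libraries of each group (points), with mean and SD (n = 3). S1pr3 and Cd69 were higher in CLPs and Spns2 was higher in MPPs at both ages, while S1pr1 was lowest in 3MO CLPs, at 0.202 to 1.49 CPM.

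Among 17 other chemokine receptors, 6 passed the filter and Cx3cr1 was the one higher in CLPs, with none lower. Cx3cr1, the receptor for fractalkine and a gene of monocyte and dendritic precursors, was at 39.2 to 50.9 CPM in 1MO CLPs and 4.28 to 7.24 CPM in 1MO MPPs, 8.33-fold higher (edgeR adjusted p = 4.23e-05), and 4.29-fold higher at 3MO. The median log2 fold change of the 6 was -0.0047 at 1MO and -0.92 at 3MO. Of the chemokine ligands of thymus and BM, 4 were tested and edgeR called 0 at either age, with 1 at 1MO and 2 at 3MO at an unadjusted p under 0.05, as were 2118 and 2540 of all 13367 genes. DESeq2 called Cxcl10, which passed the filter through the MPPs alone, so nothing is read from that call. Cxcl10 and Ccl5 were at 0 in all 3MO CLP libraries, so no median is given. Ccl25, the ligand of CCR9, was at 5.78 to 41.6 CPM over all libraries, and Ccl21a, a ligand of CCR7, was at 0 in all of them.

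Of 13 tested genes for the sugars that PSGL-1 needs to bind selectin and for its binding partners, 1 was higher in CLPs at 1MO and none lower. At 3MO edgeR called 0 of the 13, with 6 at an unadjusted p under 0.05, as were 2540 of all 13367 genes, and DESeq2 called 2 of the 13 and 1371 of all genes. Their median on the log2 scale was 0.11 at 1MO and 0.20 at 3MO. B4galt1, a galactosyltransferase, was 1.54-fold higher at 1MO (edgeR adjusted p = 0.0241). Fut7, the fucosyltransferase that completes the selectin-binding sugar, was at 22.5 to 36.0 CPM in 1MO CLPs and 37.2 to 50.1 CPM in 1MO MPPs, and did not pass (log2 fold change -0.49, edgeR adjusted p = 0.418). Among 5 tested partners of CD44 and hyaluronan genes, Ezr, which links CD44 to actin, was 1.93-fold higher in CLPs at 1MO (edgeR adjusted p = 0.00808), and Hmmr, a hyaluronan receptor that also acts in mitosis, was 1.79-fold higher at 3MO (edgeR adjusted p = 0.00886). The median of the 5 was 0.08 at 1MO and -0.05 at 3MO.

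Of 27 tested genes for signal transduction below these receptors, 1 was higher and 2 were lower in CLPs at 1MO, and 2 were lower at 3MO. Their median on the log2 scale was -0.03 at 1MO and -0.07 at 3MO. Arrb1, a beta-arrestin that uncouples and internalizes receptors, was at 109 to 180 CPM in 1MO CLPs and 279 to 345 CPM in 1MO MPPs, 2.14-fold lower (edgeR adjusted p = 0.00348), and 1.85-fold lower at 3MO. Rgs1, which shortens G protein signals, was 3.26-fold lower at 1MO (15.6 to 20.2 against 45.4 to 70.1 CPM, edgeR adjusted p = 0.0346) and 4.20-fold lower at 3MO. Rgs10, of the same family, was 2.40-fold higher at 1MO (edgeR adjusted p = 0.0453). Between 3MO and 1MO, edgeR and DESeq2 called 0 of the 67 tested genes of the 6 lists in CLPs and 0 in MPPs, and 3 in each had an unadjusted p under 0.05, as did 789 and 465 of all 13367 genes.

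**Figure D4:**
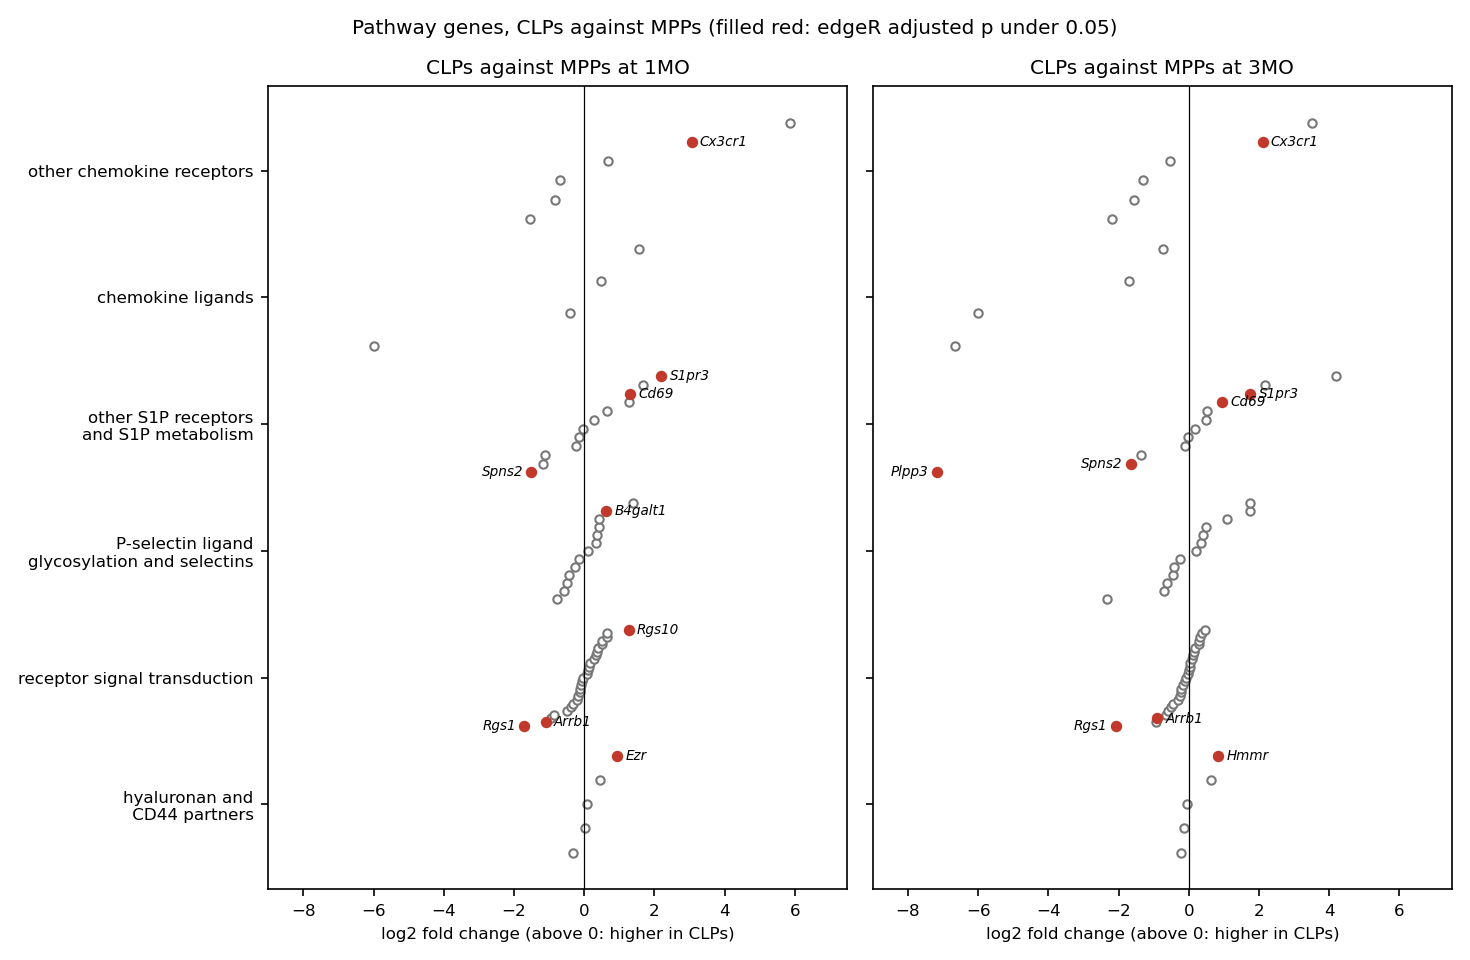
Log2 fold change of CLPs against MPPs (horizontal axis) at 1MO and 3MO for the 67 tested genes of 6 pathway lists, 1 point a gene, ordered by value within each list. Filled red points had an edgeR adjusted p under 0.05 and carry the gene name, 9 at 1MO and 8 at 3MO; Plpp3 was at 0 counts in all 3MO CLP libraries, so its fitted value is no bound.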

How the data were processed

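Ly6d- CLPs and Flk2+ MPPs were sorted by the authors from BM of 1MO and 3MO mice, and polyadenylated RNA was sequenced from directional libraries. The deposited values are estimated counts per gene, which the authors made with Trim Galore, STAR and Salmon on mm10 and scaled for transcript length, not for depth. The strand setting of the counting is not given in the sources used here. Estimated counts were rounded. Genes were kept by filterByExpr (minimum count 10), scaled by TMM and tested in 1 fit of the 4 groups with edgeR 4.0.16 (glmQLFit, R 4.3.3), with Benjamini-Hochberg adjustment over 13367 genes and a threshold of 0.05. DESeq2 1.42.0 was an alternative, since the authors used it. The SE is the log2 fold change over the root of F. The fits were tested on simulated data. Gene positions and exon lengths came from a GENCODE annotation of GRCm38, the build also called mm10. The study describes its replicates as 3 independent experimental repeats, with cells sorted per mouse, and no label gives the mouse of a library, so p-values measure the spread between libraries. The 9 genes, the 6 lists and the markers were chosen with earlier results of these data known. Besides the 9 genes, the text names at most 3 genes a list by adjusted p in CLPs against MPPs, 2 by age, the 2 nearest genes and markers. S1pr2, Plpp3, Klf2, Fut7, Ccl25, Ccl21a, Ccl5, Cxcl10, Rag1, genes that overlap Ccr9 and markers beyond the 3 highest of a cell type were named after their values were seen. Some genes of the lists are not reported here.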

Additional observations from a re-analysis of the deposited data

How the results depend on the processing

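Of the 640 values of the 9 genes recomputed under other settings, 593 kept their direction and their side of the threshold, 9 lost and 14 gained a call, and 24 changed sign. None of the 7 called values changed sign. In 3MO against 1MO CLPs, 1 gene of the set was called without the filter on low counts and 1 in DESeq2, where 46 and 57 of all genes were called. A minimum of 10 counts in every library left 4 of all genes called, as did a fit of the 6 libraries compared, and leaving out 1 library gave 6 to 10. In MPPs, no filter gave 26 of all genes, DESeq2 30, the minimum of 10 counts 1, and leaving out 1 library 3 to 5. In CLPs against MPPs at 1MO, leaving out 1 library gave 2 to 4 genes of the set and 460 to 623 of all genes, and DESeq2 called 1175. At 3MO, DESeq2 called 5 genes of the set and 1371 of all genes, the fit of 6 libraries called 435, and leaving out 1 library gave 2 to 3 of the set. The interaction had 6 of all genes without a filter, 6 in DESeq2 and 0 to 1 with 1 library left out. The cause was not tested.

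The study describes 3 independent experimental repeats, and the library order in the labels runs through the 4 groups within each replicate number, but no label says that a number marks a repeat, so the pairing is open. The correlation of deviations of same-numbered libraries was from -0.03 to 0.21, above 0.1 in 5 of 18 pairs, and 11 of 18 correlated best with their own number. Hbb-bs was at 29.8 to 52.2 CPM in library 3 of every group and at 2.52 to 10.3 CPM in the others. Klf2 was highest in library 1 of every group. With the replicate block, 5 genes of the set were called at 3MO between CLPs and MPPs, Cxcr4 (adjusted p = 0.00714) and Cd44 (adjusted p = 0.0217) in addition, and 5 with a replicate block by age and number, where these fits called 1007 and 921 of all genes against 812 without a block. The uncalled interaction of Cxcr3 turned from 0.18 to -0.25 and -0.64 under these blocks.

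Leaving out 1 library turned the sign of uncalled log2 values, from 3MO against 1MO in CLPs for Ccr7 (-0.37 to 0.030), Ccr9 (-0.21 to 0.23), Cxcr4 (-0.25 to 0.050) and Selplg (-0.10 to 0.14), and in MPPs for Ccr7 (-0.038 to 0.61), Ccr9 (-0.081 to 0.34), Cd44 (-0.017 to 0.15) and S1pr1 (-0.25 to 0.094). The same held for S1pr4 in CLPs against MPPs at 1MO (-0.22 to 0.22) and 3MO (-0.12 to 0.47), and for the interactions of Ccr9 (-0.38 to 0.13), S1pr4 (-0.10 to 0.56) and Cxcr3 (-4.28 to 0.90). With 3 libraries a group, values under about 10 CPM rest on few counts.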
